A study of Mus musculus with 24 samples.

Results

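The 34 genes described here are interferon-stimulated genes and the sensors they include, matched by symbol to the rows of the count tables, where each symbol had 1 row among the 49315 genes listed. They were measured by mRNA sequencing in primary astrocytes from the cortex of wild type C57BL/6J mouse embryos, taken late in gestation, with the cells of all embryos of a pregnant mouse pooled and used at passage 1. Cultures were mock-irradiated (0 Gy) or received 0.1 or 2 Gy of X-rays (200 kV, 1 Gy/min) and were harvested 6 h or 24 h later, so that the 6 conditions differ in dose and time and share everything else. Each condition has 4 libraries with the replicate numbers 1 to 4, and the study describes them as biological repeats from a new isolation for each experiment, although the labels do not say whether a number stands for 1 isolation. The question was whether the astrocytes changed the expression of this antiviral programme after exposure to X-rays, and how the levels differed between the 2 harvest times.

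Interferons are cytokines that cells release when sensors of foreign or misplaced nucleic acids are triggered. Type I interferons bind the receptor formed by Ifnar1 and Ifnar2 and activate, through Jak1 and Tyk2, a complex with Stat2 and Irf9 that binds interferon-stimulated response elements (ISRE) in target promoters, while interferon gamma acts through another promoter element (GAS). In the brain, microglia and astrocytes both carry these receptors, and a low tonic interferon signal keeps many target genes expressed without infection.

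Windows of 8 members are shown as examples of the shared elements, and of these *Isg15*, *Bst2*, *Ifit3b* and *Trim30a* are among the members called in the paired fits. RefSeq promoter sequences of build GRCm38.p6, each 300 bases long with 250 before and 50 after the start of the gene, matched 26 of the 34 members. The letters GAAANNGAAA, searched on both strands as an ISRE-like motif, were found in the promoters of 15 of these 26 members and in 3.99% of the 27025 genes of the table. The letters TTCNNNGAA, a GAS-like motif that reads the same on both strands, were found for 7 of the 26 members and in 9.55% of all genes. In the sequences that follow, 5′ to 3′ on the strand of the gene, capitals mark the motif, and adjoining capitals are overlapping matches. The first 7 show the ISRE-like motif. They come from *Isg15* (chr4:156200855-156200916, minus strand), *Bst2* (chr8:71537567-71537622, minus), *Trim30a* (chr7:104465200-104465249, minus), *Oas1a* (chr5:120907526-120907565, minus), *Ifit1* (chr19:34640765-34640833, plus), *Ifit3* (chr19:34583353-34583436, plus) and *Ifit3b* (chr19:34607749-34607832, plus). The last shows the GAS-like motif of *Irf1* (chr11:53769904-53769952, plus).
Isg15: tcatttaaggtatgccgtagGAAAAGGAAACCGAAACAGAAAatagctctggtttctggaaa
Bst2: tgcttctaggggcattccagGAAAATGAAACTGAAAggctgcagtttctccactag
Trim30a: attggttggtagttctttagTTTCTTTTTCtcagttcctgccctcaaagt
Oas1a: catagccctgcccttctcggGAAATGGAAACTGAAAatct
Ifit1: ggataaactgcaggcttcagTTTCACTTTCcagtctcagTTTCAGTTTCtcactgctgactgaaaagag
Ifit3: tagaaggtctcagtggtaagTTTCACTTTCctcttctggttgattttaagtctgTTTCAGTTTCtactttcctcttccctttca
Ifit3b: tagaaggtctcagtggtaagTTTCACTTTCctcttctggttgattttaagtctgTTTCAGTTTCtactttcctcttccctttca
Irf1: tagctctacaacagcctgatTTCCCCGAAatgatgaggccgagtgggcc

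The windows of *Ifit3* and *Ifit3b* were identical over 84 bases. These 2 genes encode closely related antiviral tetratricopeptide proteins and lie with *Ifit1* and *Ifit2* in a cluster of 99.3 kb on chromosome 19 (34550694 to 34650009, build mm10). Reads of such near-identical copies may be split between them, and the count of *Ifit3* was 3.32 to 4.83 times that of *Ifit3b* in the 24 libraries. Other members are also neighbours, such as *Rsad2* and *Cmpk2* within 37.1 kb on chromosome 12 and *Mx1* and *Mx2* within 114 kb on chromosome 16. The promoters of 11 matched members, among them *Irf7*, *Ifi35* and *Oasl1*, held no ISRE-like letters in the window, which says nothing about the factor itself.

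Between 14742855 and 38194800 reads were counted per library, with a median of 24829888.5. All 12 astrocyte markers had counts in every library, summing to between 2994 and 4340 CPM (counts relative to library size, scaled by edgeR's TMM factors), and so had all 14 microglial markers (among them Aif1, Cx3cr1, Csf1r, P2ry12, Tmem119, Trem2 and C1qa). The summed microglial markers divided the libraries by replicate number, with 353 to 420 CPM in the 6 libraries numbered 2 and 2039 to 3501 CPM in the 18 others. The 4 lymphocyte markers had at most 3 counts in a library. All 34 members passed edgeR's filter on low counts in every comparison, and no member had a count of 0 in any library.

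The members followed the same division. In the 6 libraries numbered 2, the 34 members summed to 417 to 497 CPM, against 1350 to 2698 CPM in the others, so that these ranges did not overlap. Replicate 2 was the lowest of the 4 libraries in all 6 conditions for 33 of the 34 members, whereas it was so for 12.2% of the 17353 genes tested over all libraries. The one exception was *Ifit2*, whose lowest library was replicate 2 in 5 of the 6 conditions. For replicates 1, 3 and 4, the count was 0 of 34 members each, with 0.415, 0.911 and 1.44% of all genes. The median over the members of the log2 difference between replicate 2 and the mean of the other replicates was -2.40. It was -2.86 for the 14 microglial markers, of which all 14 were lowest in replicate 2 in every condition. It was -0.09 for the 12 astrocyte markers, of which 2 were, and 0.02 for all genes. The 33 further interferon targets listed summed to 1011 to 1226 CPM in the libraries numbered 2 and 2481 to 5095 CPM in the others. Other lists also differed by replicate number. The 12 neuronal markers summed to 599 to 729 CPM in the libraries numbered 2 and 405 to 582 CPM in the others, with single markers on either side (Snap25 2.33 and Gad1 -0.40 on the log2 scale). The 10 fibroblast and vessel markers summed to 1016 to 1408 CPM and 291 to 1524 CPM, with Rgs5 (3.40) and Col3a1 (2.87) highest in this difference and Pecam1 (-0.80) lowest. The oligodendrocyte lineage markers summed to 624 to 898 CPM and 409.7 to 789 CPM, where Sox10 (2.09) and Pdgfra (1.55) were higher and Mbp (-2.27) lower in replicate 2. In bulk RNA, fewer cells of a type and less RNA per cell cannot be told apart, and the part of these cell types in the members' levels was not tested.

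**Figure D1:**
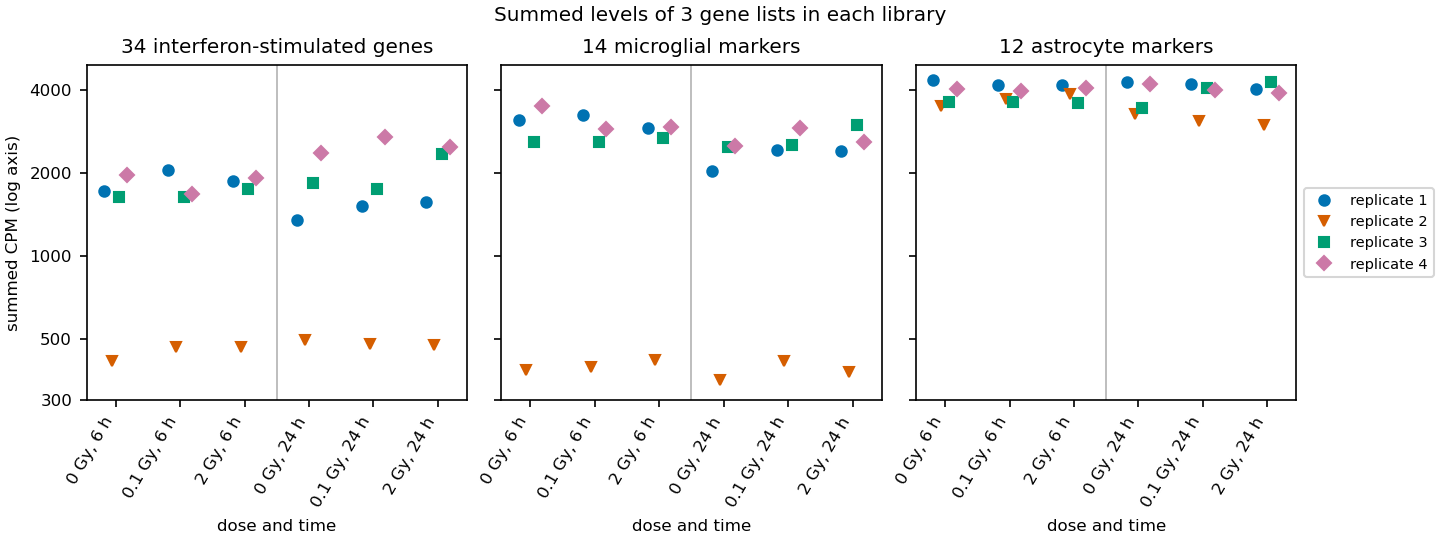
Summed CPM (log axis) of the 34 interferon-stimulated genes, the 14 microglial and the 12 astrocyte markers in each of the 24 libraries, by dose and time, with the replicate number as colour and symbol. The libraries numbered 2 lie below all others for the members (417 to 497 CPM) and the microglial markers (353 to 420 CPM). For the astrocyte markers they lie within or near the range of the others at 6 h. At 24 h they are the lowest there, with 3278, 3084 and 2994 CPM at 0, 0.1 and 2 Gy, against at least 3443, 3991 and 3894 CPM.

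The size of this difference varied among the members. It was largest for *Mx1*, a dynamin-like antiviral GTPase, at -3.90 on the log2 scale, for *Sp100*, a nuclear body protein, at -3.83, and for *Irf7*, the transcription factor that amplifies type I interferon production, at -3.74. For *Irf7* at 0 Gy and 6 h the 4 libraries had 29.4, 2.94, 65.8 and 57.8 CPM in the order of their numbers. It was smallest for *Ifit2* (-0.65), for *Irf1*, a factor induced through GAS sites (-0.88), for *Ddx58*, which encodes the RNA sensor RIG-I (-1.10), for *Stat2* (-1.13), *Irgm1* (-1.27) and *Irf9* (-1.36). *Irf1* had 27.6, 15.5, 26.4 and 30.0 CPM in the same 4 libraries. All 34 members were lower in replicate 2, by differing amounts, and Stat2 and Irf9, both subunits of the ISRE-binding complex, were among the 6 with the smallest difference.

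Within a harvest time, the replicate number accounted for most of the spread of the members and the dose for little. At 6 h, replicate number took a median of 97.5% of a member's sum of squares in log2 CPM (84.6 to 99.2%), against 63.2% over all genes, and dose took a median of 0.594% (0.0243 to 7.88%), against 7.13% over all genes. Replicate number and dose took medians of 97.1% and 0.921% of the members' spread at 24 h, and 67.1% and 10.7% of that of all genes. *Ddx58*, *Igtp* and *Ifi27* had the largest shares by dose, with 7.88% for *Ddx58* and 7.75% for *Igtp* at 6 h and 6.06% for *Ifi27* at 24 h. Libraries of the same number and time were therefore compared as pairs beside the unpaired test.

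**Figure D2:**
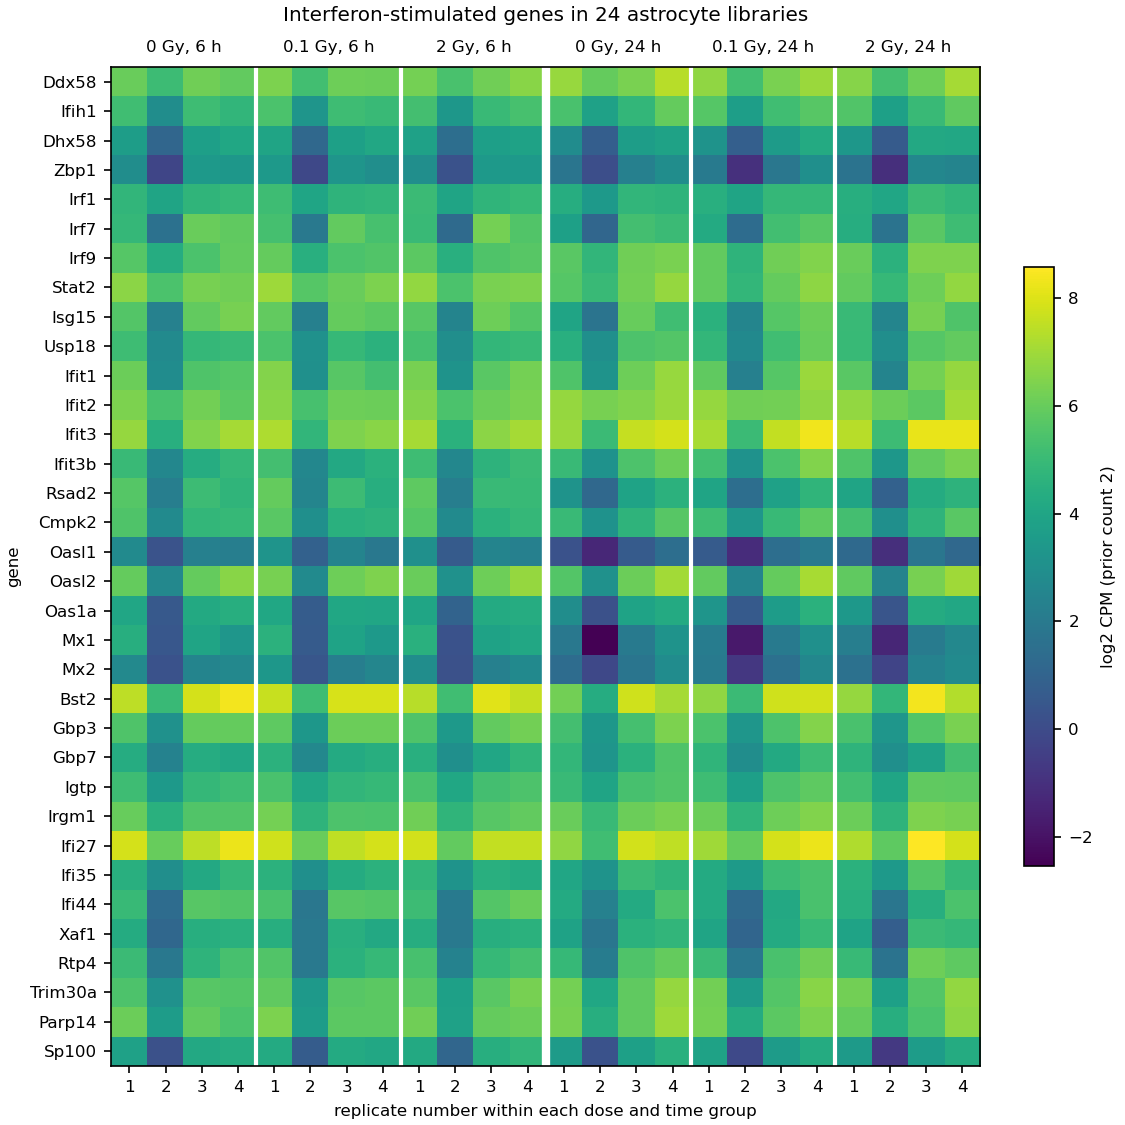
Log2 CPM (colour, prior count 2) of each of the 34 interferon-stimulated genes (rows) in the 24 libraries (columns), grouped by dose and time and ordered by replicate number within a group. The dark column in each group is replicate 2, which is the lowest library in all 6 conditions for 33 of the 34 genes, while the 3 doses of a time look alike.

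Per length of the transcript, the members ranged over more than 2 orders of size. In mock-irradiated cells at 24 h, mean levels per kb of exon were highest for *Bst2*, the surface protein tetherin that holds back budding virus (124 CPM per kb), *Ifi27* (93.9), *Ifit3* (83.5) and *Isg15*, the ubiquitin-like modifier (38.9). They were lowest for *Oasl1*, a repressor of Irf7 translation (0.544), *Mx2* (0.971), *Mx1* (1.14), *Zbp1*, a sensor of Z-form nucleic acids (1.18), and *Sp100* (1.64). *Mx1* and *Mx2* are known to carry defective alleles in most laboratory strains. Beside the 3 receptors of nucleic acids in the cytosol, *Ddx58* (15.1), *Ifih1* (4.46) and *Dhx58* (2.73), *Zbp1* was the lowest of the 4 sensors. With 4 libraries of which 1 stood apart, the SD was of the size of the mean for many members, for example 112 ± 84.5 CPM for *Bst2* and 4.17 ± 3.61 CPM for *Mx1* (SD, n = 4), so neighbours in this order do not differ beyond their spread.

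At 6 h, neither dose changed a member at the threshold used, an adjusted p under 0.05, in the unpaired or the paired test. After 0.1 Gy, 23 of the 34 members had a higher and 11 a lower estimate than in mock-irradiated cells, with a median log2 fold change of 0.06 (all genes, -0.00), and 0 were called by edgeR's quasi-likelihood test, as were 0% of all genes. Of the members, 0 were at an unadjusted p under 0.05 (0.15% of all genes), and DESeq2 and limma voom also called 0 members in this and in each of the other 5 comparisons. The median turned to -0.24 without replicate 2 of the mock-irradiated cells and to -0.19 without replicate 1 at 0.1 Gy. Members were lower in replicate 2, so leaving it out of a single group shifts an unpaired median, here and in the comparisons that follow. Leaving out other single libraries raised the median, as given in the closing section. With the replicate number as a block, 0 members and 0% of all genes were called, and 3 members were at an unadjusted p under 0.05 (3.97% of all genes). The pairs went different ways, since 33 members were higher after 0.1 Gy in replicate 1 and 32 in replicate 2, but 15 in replicate 3 and 11 in replicate 4. *Ifih1*, *Dhx58*, *Gbp3*, *Ifi44* and *Trim30a* were higher in all 4 pairs and 0 members lower in all 4, where 7.57% of all genes were higher and 6.65% lower in all 4. The groups of 0.1 and 0 Gy overlapped for all 34 members, and 0.375% of all genes had groups that did not overlap.

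After 2 Gy at 6 h, 30 of the 34 members had a higher estimate, with a median log2 fold change of 0.14 (all genes, -0.00), and again 0 were called without the block (0% of all genes) and 0 with it (0% of all genes). The median turned to -0.20 without replicate 2 of the mock-irradiated cells, to -0.05 without replicate 1 and to -0.03 without replicate 4 at 2 Gy. At an unadjusted p under 0.05 there were 0 members (1.34% of all genes) without and 7 (6.88%) with the block. Without the block, the estimates were higher for all 4 sensors, all 4 transcription factors, all 4 genes of the Ifit family and all 4 of the inducible GTPases *Gbp3*, *Gbp7*, *Igtp* and *Irgm1*, with ranges of 0.00 to 0.33, 0.02 to 0.14, 0.13 to 0.35 and 0.09 to 0.37. They were higher for 6 of the 8 other antiviral effectors, 7 of the 8 genes of other function and 1 of the 2 genes of the ISG15 system. With the block, 3 of the 4 transcription factors were higher and *Irf7* was at -0.03. In 12 members all 4 pairs were higher after 2 Gy, namely *Ddx58*, *Zbp1*, *Stat2*, *Ifit1*, *Ifit3*, *Oasl1*, *Oasl2*, *Igtp*, *Irgm1*, *Trim30a*, *Parp14* and *Sp100*, and in 0 members all 4 were lower, against 8.77% and 8.55% of all genes. The groups overlapped for all 34 members (1.17% of all genes did not overlap). The lowest p of an exact permutation test of 4 against 4 libraries over the members was 0.371, where such a test cannot go below 0.0286. Of the 14 microglial markers, 4 had a higher and 10 a lower estimate in the same fit (median -0.07), and their sum was higher than in the mock-irradiated partner in 2 of 4 pairs, with ratios from 0.838 to 1.09.

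*Igtp*, a GTPase that acts at the vacuoles of intracellular pathogens, was the only member called at 6 h in any fit described here, and it was chosen for naming after its values were seen. It had 34.7, 11.1, 29.1 and 35.2 CPM at 0 Gy and 42.1, 16.9, 38.2 and 44.4 CPM at 2 Gy. Each library at 2 Gy was higher than the library at 0 Gy with its number, although the groups overlap. The log2 fold change was 0.40 ± 0.09 (SE) with the block, which was not called by edgeR (adjusted p = 0.276), and 0.41 ± 0.07 with the block and a correction for GC content and length (adjusted p = 0.0250), a fit that called 0.971% of all genes. The annotated span of *Igtp* shares 7974 bases with that of *Irgm2* on the same strand, so reads may be assigned to either.

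At 24 h, the unpaired test again called 0 members and 0% of all genes after 0.1 Gy, and 0 members and 0% of all genes after 2 Gy, with 0 members at an unadjusted p under 0.05 for both doses (1.49% and 3.59% of all genes). The median log2 fold change of the members was 0.07 after 0.1 Gy (21 higher and 13 lower) and 0.17 after 2 Gy (25 higher and 9 lower), where the medians of all genes were -0.01 and 0.01. Since both doses are compared with the same mock-irradiated libraries, their values are not independent of each other. For all 34 members the groups overlapped at both doses, and 1.11% and 2.95% of all genes had groups that did not overlap. Leaving out the libraries numbered 2 gave medians of 0.08 and 0.16 and still 0 calls, among the members and among all genes. Leaving a single library out of a group moved these medians either way, and the values that rose are given in the closing section. Members were lower in replicate 2, so leaving it out of the mock-irradiated group alone raises that group's mean and lowers the estimates. The median after 0.1 Gy was -0.23 without replicate 2 of the mock-irradiated cells and -0.40 without replicate 4 at 0.1 Gy, and that after 2 Gy was -0.17 without replicate 2 of the mock-irradiated cells and -0.05 without replicate 4 at 2 Gy.

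Paired by replicate number, some members passed the threshold at 24 h. After 0.1 Gy the blocked fit called *Bst2* and *Ifi27*, both higher, of the 34 members, and 6.84% of all genes. After 2 Gy it called 7 of the 34, of which *Isg15*, *Bst2*, *Ifi27*, *Irf7*, *Ifit3b* and *Ifi35* were higher and *Ddx58* was lower, and 13.2% of all genes. The members' share was thus below that of all genes at 0.1 Gy and above it at 2 Gy, by few genes in both. In all 4 pairs, 9 members were higher after 2 Gy (20% of all genes) and 4 were lower (21.9%), and after 0.1 Gy 6 were higher (16.3%) and 4 lower (16.2%). The members higher in all 4 pairs after 2 Gy were the 6 called ones with *Irf1*, *Ifit3* and *Igtp*, and the members lower in all 4 were *Ddx58*, *Gbp7*, *Trim30a* and *Sp100*.

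**Figure D3:**
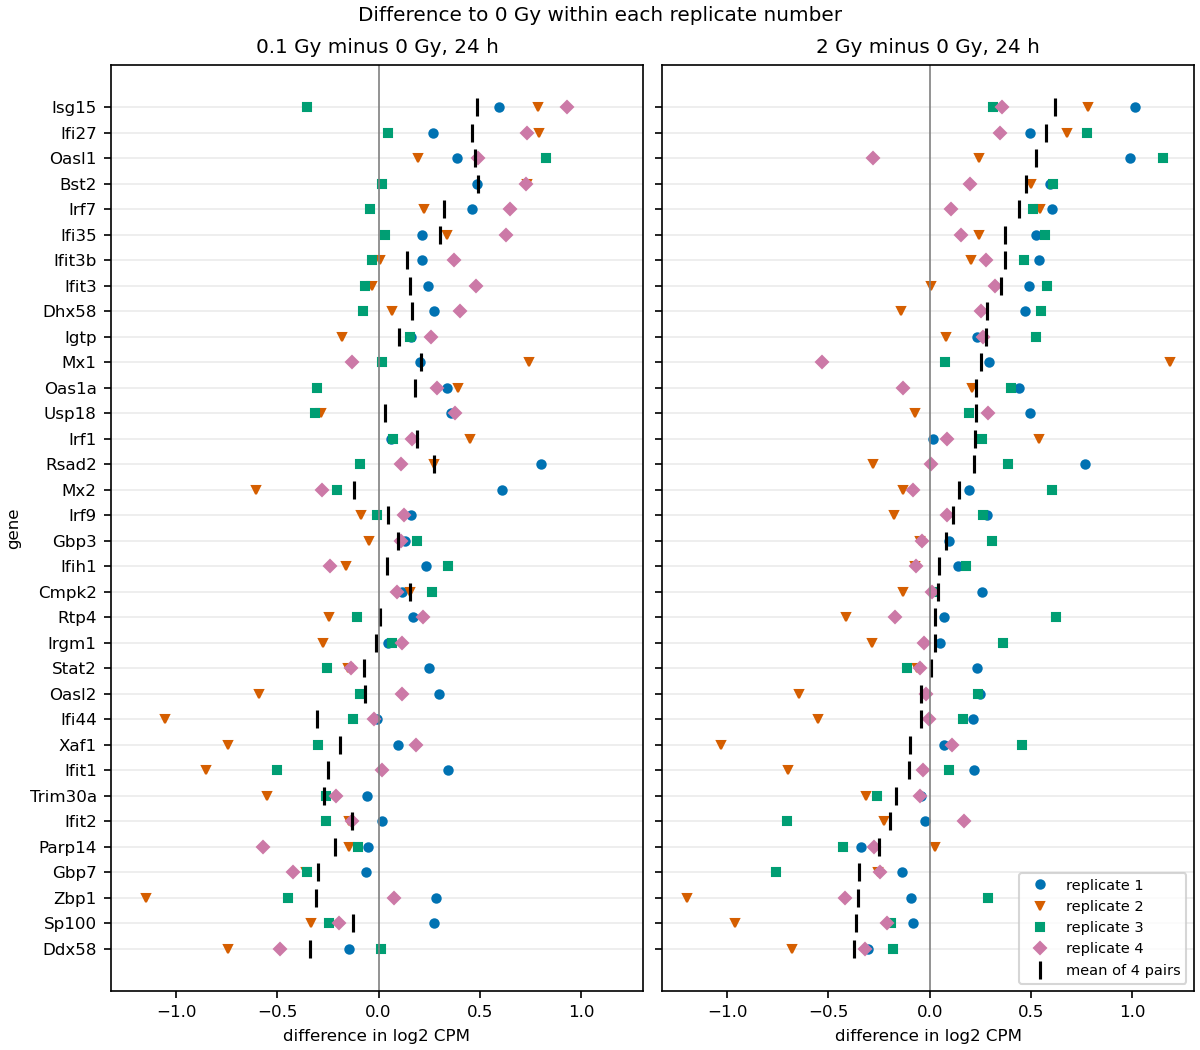
Difference in log2 CPM to the mock-irradiated library of the same replicate number at 24 h, for 0.1 Gy (left) and 2 Gy (right), with a symbol per replicate and a bar at the mean of the 4 pairs. Genes are ordered by the mean after 2 Gy, where *Isg15* and *Ifi27* are at the top with all 4 pairs above 0 and *Ddx58* is at the bottom with all 4 below 0.

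*Isg15* is conjugated to proteins during the antiviral response. It had 15.5, 3.26, 63.1 and 35.9 CPM at 0 Gy, 23.4, 5.69, 49.3 and 68.4 CPM at 0.1 Gy and 31.4, 5.67, 78.4 and 46.1 CPM at 2 Gy. Every library at 2 Gy was above its partner at 0 Gy, and the groups overlap since replicates 2 and 3 of each dose lie far apart. The log2 fold change after 2 Gy was 0.46 ± 0.85 (SE, adjusted p = 0.947, edgeR) without the block and 0.59 ± 0.14 (adjusted p = 0.0278) with it. Without replicate 3 at 2 Gy, the estimates after 2 Gy without the block turned to -0.064 for *Isg15*, -0.15 for *Bst2* and -0.11 for *Irf7*.

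*Ifi27*, a small mitochondrial protein gene, had 107, 35.7, 223 and 185 CPM at 0 Gy, 129, 61.9, 231 and 308 CPM at 0.1 Gy and 151, 57.2, 382 and 235 CPM at 2 Gy. All 4 pairs were higher at both doses. The blocked log2 fold change was 0.44 ± 0.12 after 0.1 Gy (adjusted p = 0.0433) and 0.58 ± 0.10 after 2 Gy (adjusted p = 0.0136), and without the block the adjusted p was 0.953 and 0.940 (edgeR). *Bst2* had 75.1, 19.9, 217 and 136 CPM at 0 Gy, 105, 33.2, 219 and 225 CPM at 0.1 Gy and 113, 28.2, 331 and 156 CPM at 2 Gy. It was likewise higher in all 4 pairs at both doses, though replicate 3 at 0.1 Gy was close to its partner. The blocked log2 fold change was 0.47 ± 0.12 after 0.1 Gy (adjusted p = 0.0356) and 0.48 ± 0.10 after 2 Gy (adjusted p = 0.0216), against an adjusted p of 0.974 and 0.940 without the block.

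*Irf7* had 13.7, 2.14, 37.7 and 32.4 CPM at 0 Gy and 20.9, 3.17, 53.8 and 34.9 CPM at 2 Gy, with a blocked log2 fold change of 0.43 ± 0.12 (adjusted p = 0.0452). *Ifit3b* had 31.5, 8.71, 43.8 and 67.6 CPM at 0 Gy and 45.9, 10.04, 60.6 and 82.0 CPM at 2 Gy, with 0.38 ± 0.09 (adjusted p = 0.0334). *Ifi35* had 16.2, 9.04, 33.1 and 26.9 CPM at 0 Gy and 23.3, 10.7, 49.1 and 30.0 CPM at 2 Gy, with 0.38 ± 0.11 (adjusted p = 0.0485). In each of these 3 genes the paired rise was smaller than the distance between the libraries of one dose. *Ddx58* went the other way, with 116, 61.6, 80.1 and 167 CPM at 0 Gy and 94.2, 38.4, 70.7 and 134 CPM at 2 Gy, a blocked log2 fold change of -0.37 ± 0.10 (adjusted p = 0.0466, edgeR). Without the block these 4 genes had adjusted p-values from 0.940 to 0.951.

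The calls at 24 h changed with the replicates used and with a correction made for GC content and length together. Without the libraries numbered 1 or those numbered 2, the blocked fit after 2 Gy called 0 members (0.892% and 0.432% of all genes), without number 4 it called *Ifi27* alone (1.54%), and without number 3 it called 9 (33.1%). After 0.1 Gy it called 0 without number 2 or number 4 (0.13% and 0.0987%), *Bst2* and *Ifi27* without number 1 (7.18%), and 6 without number 3 (23.2%). Where more members were called, more of all genes were called too. The blocked log2 fold change of all genes rose with the GC content of the transcripts, with r = 0.605 after 0.1 Gy and 0.580 after 2 Gy over 16145 and 15855 genes that share their libraries, and over the 34 members r was 0.724 and 0.663. With length (log2) it fell, with r = -0.685 and -0.741 over the members and -0.261 and -0.284 over all genes. *Bst2*, *Irf7* and *Ifi35* have 56.9, 56.1 and 55.4% GC, and *Ddx58* has 45.8%. With the block and a correction for GC content and length, 0 members were called after 0.1 Gy (1.48% of all genes), and after 2 Gy *Ifi27* (0.43 ± 0.07, adjusted p = 0.0208) and *Ifit3b* (0.43 ± 0.09, adjusted p = 0.0373) were called (2.85% of all genes). For *Isg15*, the estimate went from 0.59 to 0.40 ± 0.15 (adjusted p = 0.185), and for *Bst2* from 0.48 to 0.16 ± 0.08 (adjusted p = 0.277). *Irf7* went from 0.43 to 0.25 (adjusted p = 0.222), *Ifi35* from 0.38 to 0.13 (adjusted p = 0.454) and *Ddx58* from -0.37 to -0.16 (adjusted p = 0.373). After 0.1 Gy, *Bst2* went from 0.47 to 0.21 (adjusted p = 0.173) and *Ifi27* from 0.44 to 0.32 (adjusted p = 0.0716).

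**Figure D4:**
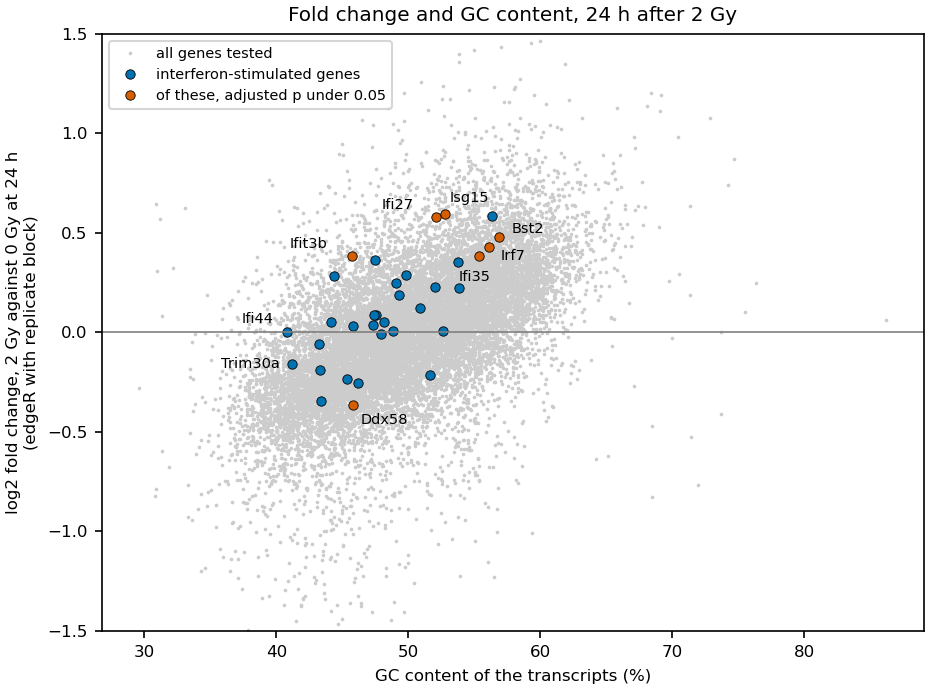
Blocked log2 fold change 24 h after 2 Gy against the GC content of the transcripts, for all genes tested (grey, 9 of them beyond the axis) and the 34 interferon-stimulated genes, with the 7 called ones in orange. Both sets rise with GC content, and *Irf7*, *Bst2* and *Ifi35* lie at the upper end of the members.

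The microglial markers summed to 353 to 2508 CPM at 0 Gy, 417 to 2922 CPM at 0.1 Gy and 379 to 2982 CPM at 2 Gy at 24 h, and the sum was higher than in the mock-irradiated partner in all 4 pairs at both doses, by factors of 1.01 to 1.18 after 0.1 Gy and 1.03 to 1.20 after 2 Gy. Of the 14 markers, 12 had a higher blocked estimate after 0.1 Gy and 11 after 2 Gy, with medians of 0.15 and 0.11. The 10 oligodendrocyte lineage markers also had a higher sum than the mock-irradiated partner in all 4 pairs at both doses, by factors of 1.16 to 1.44 after 0.1 Gy and 1.08 to 1.44 after 2 Gy. They summed to 453 to 639 CPM at 0 Gy, 575 to 898 CPM at 0.1 Gy and 489 to 897 CPM at 2 Gy, and of these markers Mog had a count of 0 in some libraries. With the block, 2 of the 9 tested were called after 0.1 Gy and 1 of the 8 tested after 2 Gy, each of them higher. The neuronal markers had a lower sum than the partner in all 4 pairs after 0.1 Gy (ratios 0.834 to 0.995) and a higher one in 1 of 4 after 2 Gy (0.890 to 1.15). The sum of the fibroblast and vessel markers was higher in 3 of 4 pairs at each dose (0.781 to 1.33 and 0.678 to 1.30). The part of these cell types in the change of the members was not tested.

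The harvest times differed more than the doses. In mock-irradiated cells, edgeR's unpaired test called 6.7% of all genes between 24 h and 6 h and 0 of the 34 members. With the replicate number as a block, edgeR called 2428 of the 15887 genes tested, and the members called among them are named below. Without the block, 18 members had a higher and 16 a lower estimate at 24 h (median 0.07, all genes -0.02). This median turned to -0.26 without replicate 2 at 6 h, to -0.08 without replicate 3 and to -0.32 without replicate 4 at 24 h. At an unadjusted p under 0.05 were 3 members and 24.7% of all genes. The lowest estimate was that of *Oasl1*, with 6.69, 1.16, 4.90 and 4.51 CPM at 6 h and 1.13, 0.326, 1.51 and 2.72 CPM at 24 h. Apart from replicate 2, its highest level at 24 h (2.72) was below its lowest at 6 h (4.51), a separation not counted over all genes. The log2 fold change was -1.62 ± 0.64 (adjusted p = 0.154). *Ddx58* had 65.1, 33.3, 71.1 and 59.6 CPM at 6 h and 116, 61.6, 80.1 and 167 CPM at 24 h, with 0.88 ± 0.33 (adjusted p = 0.140). *Ifit2* had 82.8, 40.9, 73.6 and 55.3 CPM at 6 h and 112, 79.4, 89.2 and 118 CPM at 24 h, with 0.64 ± 0.23 (adjusted p = 0.124). These 3 genes were short of the threshold in the unpaired test. With the replicate number as a block, edgeR called *Oasl1* (adjusted p = 0.00781), *Ddx58* (0.0220) and *Ifit2* (0.0296). They do not stand for their classes, since 2 of the 4 sensors had a higher and 2 a lower unpaired estimate (-0.80 to 0.88), and the Oas-like *Oasl2* was at 0.14. For all 34 members the full groups overlapped, and 15.3% of all genes had groups that did not.

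Without the libraries numbered 2, a setting added after the data were seen, the unpaired fit called *Oasl1* (-1.60 ± 0.36, adjusted p = 0.0285) and *Mx1* (-1.501 ± 0.39, adjusted p = 0.0461), both lower at 24 h, and 7.44% of all genes. *Mx1* had 21.6, 1.32, 15.4 and 9.65 CPM at 6 h and 3.72, 0.0932, 3.97 and 8.89 CPM at 24 h. Without the libraries numbered 2, its highest level at 24 h (8.89) was close to its lowest at 6 h (9.65). How many of all genes had separate groups in this setting was not counted, and fewer libraries separate more readily. With all libraries the log2 fold change of *Mx1* was -1.54 ± 0.97 (adjusted p = 0.364) without the block and -1.76 ± 0.42 (adjusted p = 0.0189, edgeR) with it. *Rsad2*, which encodes the antiviral enzyme viperin, had 49.4, 4.51, 34.2 and 26.6 CPM at 6 h and 8.89, 2.24, 14.8 and 24.6 CPM at 24 h. Its unpaired log2 fold change was -1.20 ± 0.75 (adjusted p = 0.361) with all libraries and -1.19 ± 0.35 (adjusted p = 0.0682) without those numbered 2. With all libraries and the block it was -1.22 ± 0.32 (adjusted p = 0.0297, edgeR).

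The unpaired estimates were 0.74 for *Gbp7*, 0.78 for *Trim30a* and 0.68 for *Ifit3*, and -0.81 for *Bst2*, -0.87 for *Irf7* and -0.74 for *Isg15*, with adjusted p-values from 0.403 to 0.644 (edgeR). With the replicate number as a block all 6 were called, with adjusted p-values from 0.00995 to 0.0469 (edgeR). By role, all 4 Ifit genes had higher unpaired estimates at 24 h (0.49 to 0.78), and 6 of the 8 other antiviral effectors had lower ones (median -0.64, range -1.62 to 0.14). The unpaired test called 0 in either group, and the blocked fit called 2 of the 4 and 4 of the 8, where it called 2428 of all 15887 genes tested. The 14 microglial markers all had lower estimates at 24 h (median -0.32, 0 called), and they summed to 385 to 3501 CPM at 6 h and 353 to 2508 CPM at 24 h. Their part in the members' difference between the times was not tested.

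**Figure D5:**
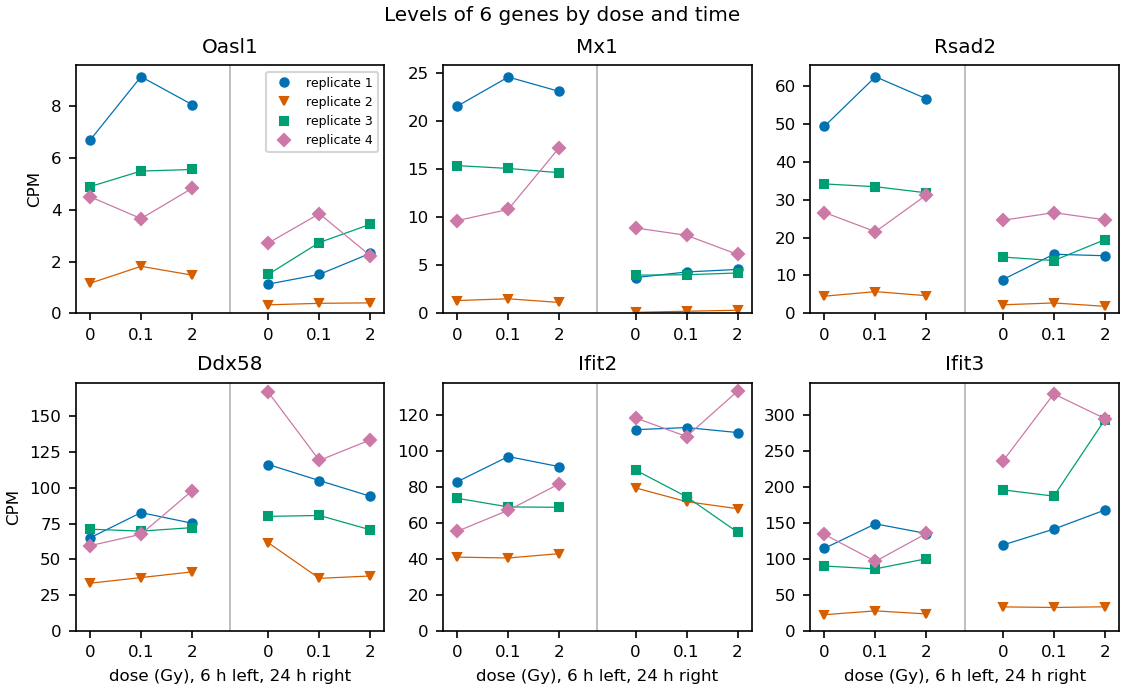
CPM of 6 interferon-stimulated genes in each library, at 0, 0.1 and 2 Gy after 6 h (left of the line) and 24 h (right), with lines joining libraries of one replicate number within a time. The mean of the mock-irradiated libraries is lower at 24 h than at 6 h for *Oasl1*, *Mx1* and *Rsad2* and higher for *Ddx58*, *Ifit2* and *Ifit3*. None of the 6 was called in the unpaired test and all were called with the replicate block, which called 2428 of the 15887 genes tested. Replicate 2 is the lowest of the mock-irradiated libraries in every panel.

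The effect of 2 Gy was compared between the times by an interaction term. Without the block it was not past the threshold for any member (0 of 34) or for any gene (0%). With blocks for replicate number within each time, 4 of the 34 members and 6.78% of all genes were called. The fold change was greater at 24 h than at 6 h for *Ifi27*, by 0.76 ± 0.17 on the log2 scale (adjusted p = 0.0388, edgeR). It was smaller at 24 h for *Ddx58* (-0.67 ± 0.16, adjusted p = 0.0402), *Sp100* (-0.67 ± 0.18, adjusted p = 0.0468) and *Trim30a*, a regulator of inflammatory signalling (-0.55 ± 0.15, adjusted p = 0.0475). *Ddx58* had 75.3, 41.3, 72.2 and 97.9 CPM at 2 Gy and 6 h, above its mock-irradiated partner in all 4 pairs, and was below it in all 4 at 24 h. *Trim30a* had 44.8, 8.48, 50.8 and 48.8 CPM at 0 Gy and 53.0, 13.5, 53.8 and 77.5 CPM at 2 Gy after 6 h, and 76.6, 16.9, 57.4 and 114 CPM at 0 Gy and 74.3, 13.6, 47.9 and 110.1 CPM at 2 Gy after 24 h. It too was above the mock-irradiated partner in all 4 pairs at the earlier and below it in all 4 at the later time. *Ifi27* had 235, 63.1, 176 and 309 CPM at 0 Gy and 228, 60.6, 189 and 191 CPM at 2 Gy at 6 h, so that only replicate 3 was higher there, and all 4 were higher at 24 h. With the correction for GC content and length added, *Ifi27* alone stayed past the threshold (0.56 ± 0.11, adjusted p = 0.0401) and 1.68% of all genes were called. *Ddx58* was then at -0.39, *Sp100* at -0.33 and *Trim30a* at -0.15. The blocked fit called 0 members and 0 genes without replicate number 1 or 2, *Ifi27* alone without number 4 (0.814% of all genes) and 8 members without number 3 (23.4%).

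The rest of the pathway was measured in the same libraries. Of 10 interferon genes listed, including Ifnb1, Ifna1, Ifna2, Ifna4 and Ifng, none had more than 4 counts or more than 0.183 CPM in a library, and none passed the filter. The receptor subunits were expressed, in mock-irradiated cells at 24 h with 80.8 ± 14.004 CPM for Ifnar1, 37.6 ± 6.19 for Ifnar2, 67.1 ± 13.0 for Ifngr1 and 64.3 ± 10.1 for Ifngr2 (SD, n = 4), whereas Ifnlr1 of the lambda receptor had 0.572 ± 0.221. The 13 receptors, kinases and their regulators summed to 585 to 684 CPM in the libraries numbered 2 and 631 to 842 CPM in the others. Without the block, 0 of these 13, 0 of 14 upstream sensing genes and 0 of 33 further interferon targets were called at either dose and time.

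With the block, 0 of these genes were called at 6 h at either dose. At 24 h, 10 calls were made among the 33 further targets over both doses. The class I chains H2-K1 and H2-D1 were higher after 0.1 Gy (0.52 ± 0.11, adjusted p = 0.0262, and 0.64 ± 0.11, adjusted p = 0.0262) and after 2 Gy (0.55 ± 0.11, adjusted p = 0.0189, and 0.72 ± 0.11, adjusted p = 0.0104). The peptide transporter gene Tap2 was higher after both doses (0.47 ± 0.12, adjusted p = 0.0382, and 0.63 ± 0.11, adjusted p = 0.0154), Tap1 after 2 Gy (0.55 ± 0.09, adjusted p = 0.0140) and the immunoproteasome subunit Psmb10 after 0.1 Gy (0.47 ± 0.13, adjusted p = 0.0444). Of the same machinery, B2m, Tapbp, Psmb8 and Psmb9 were not called at either dose, and B2m, the partner of the class I chains, had an estimate of -0.36 ± 0.15 after 2 Gy (adjusted p = 0.145). These 4 were named after their values were seen. In all, 4 of the 33 targets were called after 0.1 Gy, where the blocked fit called 6.84% of all genes, and each of the 4 was higher. After 2 Gy, where it called 13.2% of all genes, 5 were higher, Ccl5 (0.54 ± 0.15, adjusted p = 0.0440) being the fifth, and Samd9l was lower (-0.48 ± 0.11, adjusted p = 0.0270).

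Upstream, the endosomal RNA sensor Tlr3 and the RNA-activated kinase Eif2ak2 were lower after 0.1 Gy (-0.43 ± 0.11, adjusted p = 0.0374, and -0.35 ± 0.10, adjusted p = 0.0464) and after 2 Gy (-0.41 ± 0.09, adjusted p = 0.0268, and -0.33 ± 0.09, adjusted p = 0.0490) with the block. The transcription factor Irf3 was higher after 2 Gy (0.50 ± 0.09, adjusted p = 0.0158). Of the 13 receptors, kinases and regulators, Socs3, a feedback inhibitor, was higher (0.38 ± 0.09, adjusted p = 0.0346) and Jak2 lower (-0.43 ± 0.10, adjusted p = 0.0308) after 2 Gy. These are 2 of 14 sensing genes and 0 of 13 receptors, kinases and regulators after 0.1 Gy (6.84% of all genes), and 3 of 14 and 2 of 13 after 2 Gy (13.2%). The block with GC content and length left H2-K1 and H2-D1 after 0.1 Gy (adjusted p = 0.0330 and 0.00630) and H2-D1, Tap1 and Tap2 after 2 Gy (adjusted p = 0.0226, 0.0221 and 0.0409) among the genes of these 3 lists. For the later against the earlier harvest of mock-irradiated cultures, the unpaired test called Tlr3 (0.94 ± 0.24, adjusted p = 0.0464) and Eif2ak2 (1.03 ± 0.19, adjusted p = 0.0198), both higher at 24 h, and the chemokine gene Cxcl10, lower at 24 h (-1.46 ± 0.31, adjusted p = 0.0281) and named after its values were seen.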

How the data were processed

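Raw counts per gene were deposited for each of the 24 libraries by the authors, without normalization or pooling, as whole numbers for 49315 Ensembl genes of build mm10. Trimming, mapping and counting were done by the sequencing company after poly(A) selection; the aligner, counting tool and the use of strand are not given in the sources used here. Titles gave each sample's group and replicate number. Members and gene lists were chosen with earlier results of these data known.

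Each comparison was fitted to all genes of the libraries compared in R 4.3.3 with edgeR 4.0.16 (TMM normalization, filterByExpr, quasi-likelihood test, Benjamini-Hochberg adjustment), with an adjusted p under 0.05 as the threshold for a call and no minimum fold change. The fit was repeated with the replicate number as a block, alone and with a correction for GC content and length (splines with 5 degrees of freedom). Libraries of the same number and time deviated together from their group means in all 4 dose comparisons (correlation across genes 0.539 to 0.927), so the numbers were taken to pair them within a time; the interaction had a block for each number within each time. Between 24 h and 6 h the lowest such correlation was 0.0645 (replicate 3), and 3 of the 4 libraries correlated best with their own number. These libraries were not taken as pairs in the main test, and the blocked fit is given beside it. CPM are counts scaled by TMM factors over the 24 libraries, with a prior count of 2 on the log2 scale. Exact permutation tests were two-sided. Any member could be named with its levels, and a test was printed for members at an unadjusted p under 0.05 without the block or called with it (at most 12 per comparison; *Igtp* at 6 h is an exception), and for other pathway genes called in a dose comparison. Alternatives were limma voom 3.58.1, DESeq2 1.42.0, other scalings and filters, and libraries left out. No 2 libraries of a group agreed within sampling noise (lowest chi-square per degree of freedom 28.3 over 36 pairs). Not every marker gene is named here. P-values of the unblocked tests measure the spread between these samples. Those of the blocked fits measure the spread that remains after the level of each replicate number is taken out. The test scripts were tested on simulated counts.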

Additional observations from a re-analysis of the deposited data

Results flagged for a closer look

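In 10 of the 204 sets of 4 libraries, formed by each member in each condition, a single library stood apart from the other 3 by Dixon's criterion at the 95% level. Chance flags about 1 set in 20, and members of one library are not independent. In all 10 it was the lowest library and carried the number 2, and all were harvested at 6 h. At 0 Gy these were *Mx2* (1.12 CPM), *Trim30a* (8.48 CPM) and *Xaf1* (2.15 CPM). At 0.1 Gy they were *Isg15* (4.79 CPM), *Oas1a* (1.54 CPM), *Sp100* (1.54 CPM) and *Trim30a* (10.7 CPM), and at 2 Gy *Dhx58* (2.67 CPM), *Parp14* (14.02 CPM) and *Xaf1* (3.76 CPM).

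With blocks for the replicate number, the log2 fold change after 2 Gy differed between 24 h and 6 h for *Ddx58* (-0.67), *Ifi27* (0.76), *Trim30a* (-0.55) and *Sp100* (-0.67) in edgeR's interaction test, and none of these differences passed the threshold without the block.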

How the results depend on the processing

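Of 1054 values recomputed under other settings, 932 kept their direction and their side of the threshold or moved by less than the spread between replicates. Under the other unblocked tools, scalings and filters with all libraries, and without any single library, 0 of 34 members were called in each of the 6 comparisons, as in the unblocked fit. Over all genes, DESeq2 called 0 and 1 at 6 h (0.1 and 2 Gy), 0 and 93 at 24 h, 1969 between the times, where edgeR called 1064, and 7 for the interaction. At an adjusted p under 0.01 the count between the times was 157.

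The replicate block raised the members called to 2 (0.1 Gy) and 7 (2 Gy) at 24 h and to 4 for the interaction, and changed no call at 6 h. With GC content and length added, the block called 1 member after 2 Gy at 6 h, 2 after 2 Gy at 24 h, and 1 for the interaction. Between 24 h and 6 h the numbers were not taken as pairs in the main test (3 of 4 libraries correlated best with their own number). There the block called 11 of the 34 members and 2428 of the 15887 genes tested. With GC content and length added, it called 14 members and 4382 of the 15850 genes tested. Leaving out the libraries numbered 2 in this comparison, without a block, called 2 members and 7.44% of all genes.

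With 1 library left out, or 1 replicate number from the blocked fit, the members called ranged from 0 to 1 (2 Gy, 6 h), 0 to 6 (0.1 Gy, 24 h), 0 to 9 (2 Gy, 24 h), 0 to 18 (between the times) and 0 to 8 (interaction), where the fits with the highest counts called 0.799, 23.2, 33.1, 45.4 and 23.4% of all genes, each highest without number 3 except at 6 h, where it was without number 4. The members' median log2 fold change ranged from -0.24 to 0.35 (0.1 Gy, 6 h), -0.20 to 0.44 (2 Gy, 6 h), -0.40 to 0.45 (0.1 Gy, 24 h), -0.17 to 0.55 (2 Gy, 24 h), -0.32 to 0.40 (between the times) and -0.26 to 0.45 (interaction), with each lowest and highest value from leaving out a library numbered 2 or 4. Without replicate 3 at 2 Gy and 24 h, the unblocked estimates after 2 Gy turned to -0.15 for *Bst2*, -0.064 for *Isg15* and -0.11 for *Irf7*, and without replicate 3 at 0 Gy they were 1.01, 1.13 and 0.79. The causes were not tested.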
